A study of Arabidopsis thaliana with 4 samples.

Results

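RR16 (AT2G40670, also called ARR16) and ARR15 (AT1G74890) are type-A response regulator genes of Arabidopsis thaliana, the short, fast-responding regulators of the cytokinin signalling pathway. They were chosen by name, as the probe sets that the platform's probe-to-gene table assigns to either gene, and each gene had 1 probe set. They are 2 of the 13355 genes with a name, on an array of 22746 probe sets. Shoot apices with leaf primordia were collected from soil-grown plants of the Col-0 background after 14 days of growth under 16 hours of light and 8 hours of dark, and RNA from each genotype was hybridised to 1 Affymetrix array. The plants were wild type, mutant for AS1 (as1-1), mutant for AS2 (as2-1) or of a line labelled AS2 overexpressing, whose promoter and number of independent lines are not stated in the labels. The sample descriptions mention embryos, which the growth and tissue labels contradict, and these labels were followed.

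Cytokinin is perceived by histidine kinase receptors, and the signal passes through phosphotransfer proteins to response regulators in the nucleus. Type-B response regulators are DNA-binding activators, and type-A regulators are among the genes they switch on. Type-A proteins lack a DNA-binding output domain and dampen the pathway, so their transcripts serve both as a readout of cytokinin response and as its brake. ARR15 acts with ARR7 in the shoot meristem, where the stem cell factor WUSCHEL is known to repress both genes, and RR16 is known from the root and from the stomatal lineage of the leaf epidermis. AS1, a MYB-domain protein, and AS2, of the LBD family, repress class I KNOX genes in leaf primordia, and KNOX proteins are known to raise cytokinin synthesis.

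The 2 type-A genes had different patterns over the 4 genotypes. RR16 had its highest signal on the AS2 overexpressing array, 1.86-fold above wild type, and lay within 1.24-fold on the other 3 arrays. ARR15 stayed within 1.17-fold on all 4. Neither gene reached a 2-fold difference in any of the 6 pairs of arrays. With 1 array per genotype there is no replicate, so every value describes these arrays, no test was possible and no difference carries an error.

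RR16 had a scaled signal of 114.8 in wild type, 109.0 in as1-1, 135.2 in as2-1 and 213.3 with AS2 overexpressed. These are in linear intensity units, after each array was centred on the median of its brighter probe sets. The deposited signals before that step were 113.5, 111.0, 136.5 and 209.9 in the same order. The order from lowest to highest was therefore as1-1, wild type, as2-1 and AS2 overexpressing, and only the last stood well apart from its neighbour. Whether the lower 3 differ beyond the spread between plants cannot be told without replicates. All 4 values lay above the floor of 42.9, the 40th percentile of all scaled signals, below which signals were given no order. The lowest, in as1-1, was 2.54-fold over it and the highest 4.97-fold.

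ARR15 had a scaled signal of 109.2 in wild type, 127.6 in as1-1, 121.3 in as2-1 and 113.0 with AS2 overexpressed. The deposited signals were 107.9, 130.0, 122.5 and 111.2. Both mutants were slightly higher than wild type and than the AS2 overexpressing line, and no neighbours in this order can be called different. The lowest ARR15 value was 2.55-fold over the floor. Both probe sets thus lay above this floor on every array. With the floor at the 60th percentile, 128.5, ARR15 lay under it on all arrays and RR16 in wild type and as1-1. The signals of RR16 and ARR15 are not compared with each other because probe sets differ in how brightly they report a transcript. In whole shoot apices, fewer cells of a type and less RNA per cell cannot be told apart.

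**Figure D1:**
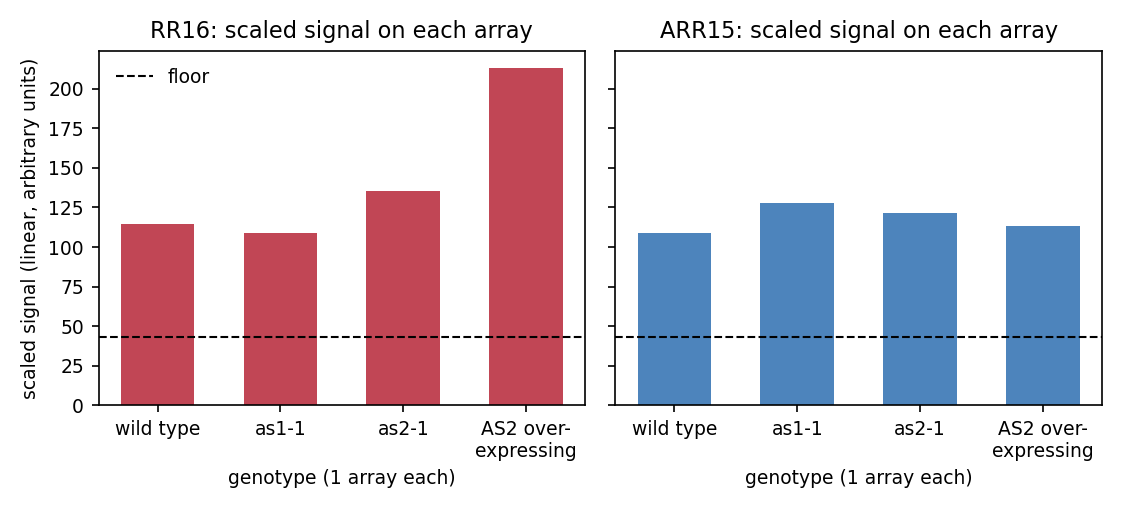
Scaled signal (linear, arbitrary units) of RR16 and ARR15 on the array of each genotype, with the floor of 42.9 as a dashed line. Each bar is 1 array with no replicate. RR16 is highest on the AS2 overexpressing array at 213.3, and the 4 ARR15 bars lie between 109.2 and 127.6. Heights are not comparable between the panels.

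Loss of AS1 and loss of AS2, as given by the genotype labels, were each set against wild type. In as1-1, RR16 had a log2 difference of -0.08 and ARR15 one of 0.23. In as2-1 the log2 differences were 0.24 for RR16 and 0.15 for ARR15. A call of higher or lower was set at 2-fold, and 0 of the 2 type-A genes met it in either mutant, beside 2.87% of the 7744 genes measured in as1-1 and 3.28% of the 7752 measured in as2-1. All 4 differences lay inside the range from the 5th to the 95th percentile of all genes, which ran from -0.71 to 0.68 in as1-1 and from -0.73 to 0.68 in as2-1. The median gene stood at -0.03 and -0.04. Both comparisons use the same wild type array.

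Gain of AS2, as given by the genotype label, was then set against wild type. RR16 had a log2 difference of 0.89, a 1.86-fold higher signal in the AS2 overexpressing line. ARR15 had one of 0.05, 1.04-fold. The 2-fold call was met by 0 of the 2 genes, beside 1.91% of 7748 genes. RR16 lay above the 95th percentile of all genes, which was 0.59, and 89 genes (1.15%) had a difference as high as that of RR16 or higher. Among the 2110 genes with a mean signal from 100 to 200, the range that holds both type-A genes, 25 (1.18%) did. In either direction, 227 of the 7748 genes (2.93%) lay at least as far apart as RR16. ARR15 lay near the median gene, at -0.02. The call for RR16 depends on the scaling: with each array centred on the median of all its probe sets, its log2 difference was 1.01, just over 2-fold, while that scaling moved the median gene by 0.12.

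The pairs that leave out wild type gave a similar picture for RR16. The AS2 overexpressing line exceeded as1-1 by a log2 difference of 0.97, 1.96-fold, and as2-1, the line mutant for AS2, by 0.66, 1.58-fold. With centring on all probe sets the first of these came to 1.04. The 2-fold call was met by 0 of the 2 type-A genes in both pairs, beside 2.93% and 2.79% of all genes. RR16 stood above the 95th percentile of all genes in both, by little in the second (0.66 against 0.65). In either direction, 3.29% of genes in the first pair and 10.4% in the second lay at least as far apart. ARR15 was slightly lower in the AS2 overexpressing line, at -0.18 against as1-1 and -0.10 against as2-1. These comparisons share the AS2 overexpressing array with the comparison above, so they are not independent of it.

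The mutants were also set against each other. RR16 was lower in as1-1 than in as2-1 by a log2 difference of -0.31, and ARR15 differed by 0.07. Here 0 of the 2 genes met the 2-fold call, beside 0.729% of 7540 genes. Both lay within the range from the 5th to the 95th percentile, -0.47 to 0.51.

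**Figure D2:**
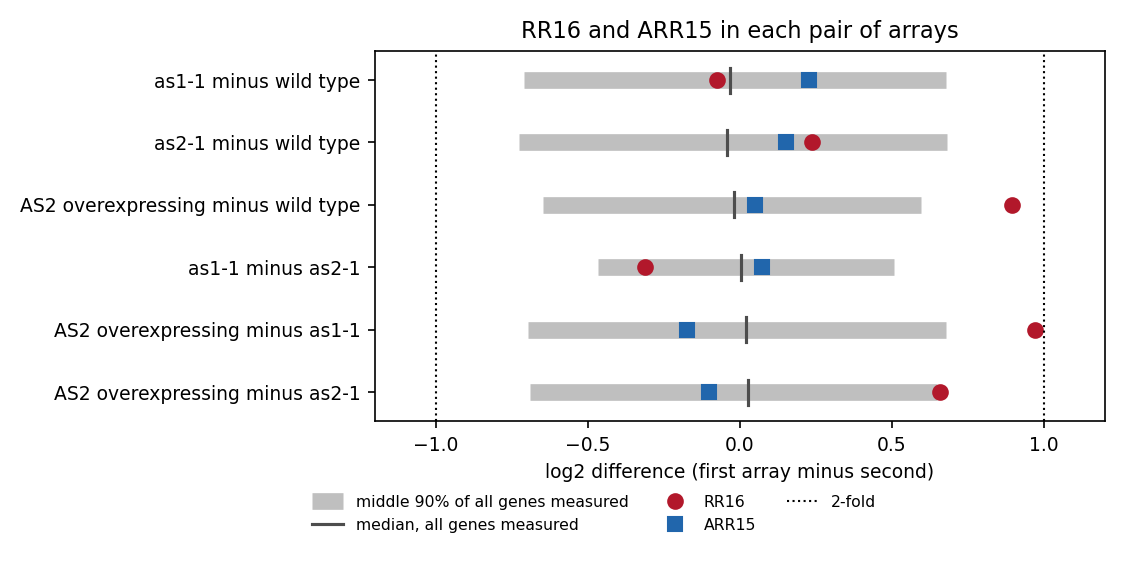
Log2 difference of RR16 (circles) and ARR15 (squares) in each of the 6 pairs of arrays, first array minus second. Grey bars span the 5th to 95th percentile of all genes measured in the pair and the short line is their median, with dotted lines at 2-fold. RR16 lies to the right of the grey bar in the 3 pairs with the AS2 overexpressing array, at 0.89, 0.97 and 0.66, and ARR15 lies inside it in all 6.

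Over the 4 arrays together, RR16 spanned a log2 range of 0.97, and 8.55% of the 6821 genes that exceeded the floor on every array spanned at least as much. ARR15 spanned 0.23, where the median gene spanned 0.49 and 88.6% of genes spanned at least as much as ARR15. RR16 also stood on the AS2 overexpressing array at least 1.58-fold above each other array. The AS2 overexpressing array held the highest value for 1882 of the 6821 genes (27.6%), and for 23 of these genes, RR16 included, the gap to the next array was at least as wide as that of RR16. The difference between the type-A genes was widest in the pair of the AS2 overexpressing line and as1-1, where the log2 difference of RR16 exceeded that of ARR15 by 1.14, and it was 0.84 against wild type. Since each of these is a ratio of ratios on single arrays, the measurement shows unequal differences and carries no error.

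The other genes of the cytokinin pathway were taken from 10 lists with 81 genes, from receptors to transport. Of these, 8 were named on the array, none of them a receptor, a phosphotransfer protein, a synthesis or breakdown enzyme or a cytokinin response factor. Those genes and the other 8 type-A regulators were not analysed here. The type-B regulators RR18 and RR19 and the type-C regulator RR22 lay below the floor on all 4 arrays, with highest signals of 15.7, 20.6 and 3.95. They therefore gave no difference. This left 3 measured genes beside RR16 and ARR15, all of cytokinin transport or conjugation.

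UGT76C2 and UGT76C1 encode glucosyltransferases that inactivate cytokinin by N-glucosylation. UGT76C2 had scaled signals of 133.7 in wild type, 179.8 in as1-1, 172.0 in as2-1 and 262.2 with AS2 overexpressed. Its values were highest where those of RR16 were highest, at a log2 difference of 0.97 from wild type, but both mutants also lay above wild type, by 0.43 and 0.36. UGT76C1, with signals of 93.1, 117.8, 90.8 and 132.0, was 0.50 above wild type in the AS2 overexpressing line and 0.34 above it in as1-1. These genes are close relatives next to each other in the genome, and shared hybridisation between their probe sets was not tested.

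AZG1, a purine transporter reported to carry cytokinin, had signals of 73.6, 80.5, 78.6 and 103.5 and a log2 difference of 0.49 in the AS2 overexpressing line. All 5 measured cytokinin genes thus had a higher signal in the AS2 overexpressing line than in wild type, with a median log2 difference of 0.50. Of all genes, 47.2% were higher and the median was -0.02. These genes and lists were chosen with earlier results of these data known, so the count is no independent evidence. Without RR16 and ARR15, the other 3 were all higher (median 0.50), among them the adjacent UGT76C2 and UGT76C1. None of the 5 met the 2-fold call there, but RR16 (1.01) and UGT76C2 (1.09) did with centring on all probe sets. ARR15 lay so near 0 that its sign turned (-0.00072) when arrays were centred on 5 reference genes. In as1-1, 4 of the 5 were above wild type (median 0.23) under every scaling, with RR16 as the exception and 0 at 2-fold, where 46.3% of all genes were above wild type. In as2-1, 4 of the 5 were above wild type (median 0.15), with UGT76C1 (-0.04) as the exception and 0 at 2-fold, where 45.1% of all genes were above wild type. That count was 5 with centring on all probe sets, quantile normalization or loess and 2 with centring on reference genes, so no common direction holds in as2-1.

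**Figure D3:**
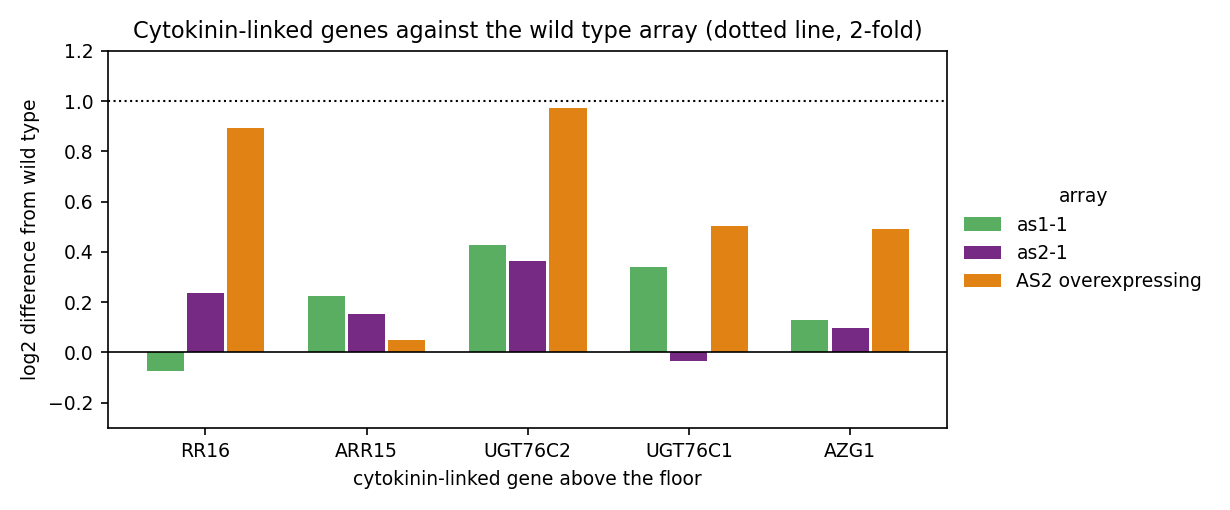
Log2 difference from the wild type array of the 5 cytokinin-linked genes above the floor, on the as1-1, as2-1 and AS2 overexpressing arrays, 1 array each. The dotted line marks 2-fold. The AS2 overexpressing bar is the tallest for RR16 (0.89), UGT76C2 (0.97), UGT76C1 (0.50) and AZG1 (0.49), but not for ARR15 (0.05).

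A further list of 12 genes reported to be induced by cytokinin, drawn up after the values above had been seen, held 3 named genes. One was UGT76C2. AT5G18600, a glutaredoxin gene, had signals of 95.0 in wild type, 151.3 in as1-1, 66.3 in as2-1 and 121.4 with AS2 overexpressed, so as2-1 was lowest and as1-1 highest. Its log2 difference between as1-1 and as2-1 was 1.19, the 1 difference past 2-fold among these genes, and it does not follow the order of either type-A gene. AT4G15690, of the same family, lay below the floor on all 4 arrays.

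Markers of the tissue and of the cells where these regulators act were read beside them. Of 8 stomatal lineage markers, 3 were named. SPCH, the transcription factor that starts the lineage, had signals of 217.6, 190.0, 214.7 and 191.9 in wild type, as1-1, as2-1 and AS2 overexpressing. FMA, which acts at the last division of the guard cell mother cell, had 91.7, 63.1, 76.6 and 81.0, and MUTE lay below the floor on all 4. The summed signal of the 3 ranged from 277.5 in as1-1 to 332.4 in wild type and was 299.2 in the AS2 overexpressing line. This sum is carried mostly by SPCH.

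For the shoot meristem 1 of 7 markers was named, CLV3, the stem cell peptide gene, which was below the floor on all arrays (23.5 in wild type, between 1.57 and 1.98 on the others). For the leaf primordium 2 of 8 were named. AS1 and AS2 are on this list but were not named, so the signals of AS1 and AS2 themselves were not read on any array. YAB3 was even, between 362.4 and 433.6. YAB5, a gene of the abaxial leaf side, had 151.5 in wild type, 344.4 in as1-1, 380.2 in as2-1 and 4.98, below the floor, in the AS2 overexpressing line, the array on which RR16 was highest. The root hair gene EXPA7, 1 of 6 root markers, was below the floor throughout, at 16.3 or less. The part of cell type makeup in the RR16 difference was not tested.

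RR16 was compared with the 6821 genes measured on every array for likeness of pattern, as the root mean square difference of log2 values over the 4 arrays after each gene's own mean was removed. The 5 most like it were AT1G20380 (0.017), AT3G13740 (0.037), AT1G52100 (0.054), the sugar transporter gene SWEET1 (0.071) and AT1G60990 (0.071). AT1G20380 had signals of 107.5, 100.1, 126.5 and 202.4 in wild type, as1-1, as2-1 and AS2 overexpressing, and SWEET1 160.4, 174.8, 201.1 and 320.7. Within 0.2 of RR16 lay 166 genes, and UGT76C2 ranked 142 (0.193).

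ARR15 had far more company, with 3195 of the 6821 genes within 0.2. The measure is not scaled to a gene's range, so genes that vary little, as ARR15 does, lie near each other by it. Its nearest were AT2G45520 (0.0064), AT1G23960 (0.0072), AT4G02860 (0.012), PHOS32 (0.012) and AT3G13226 (0.019). With 4 arrays such likeness is a description of these values only.

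**Figure D4:**
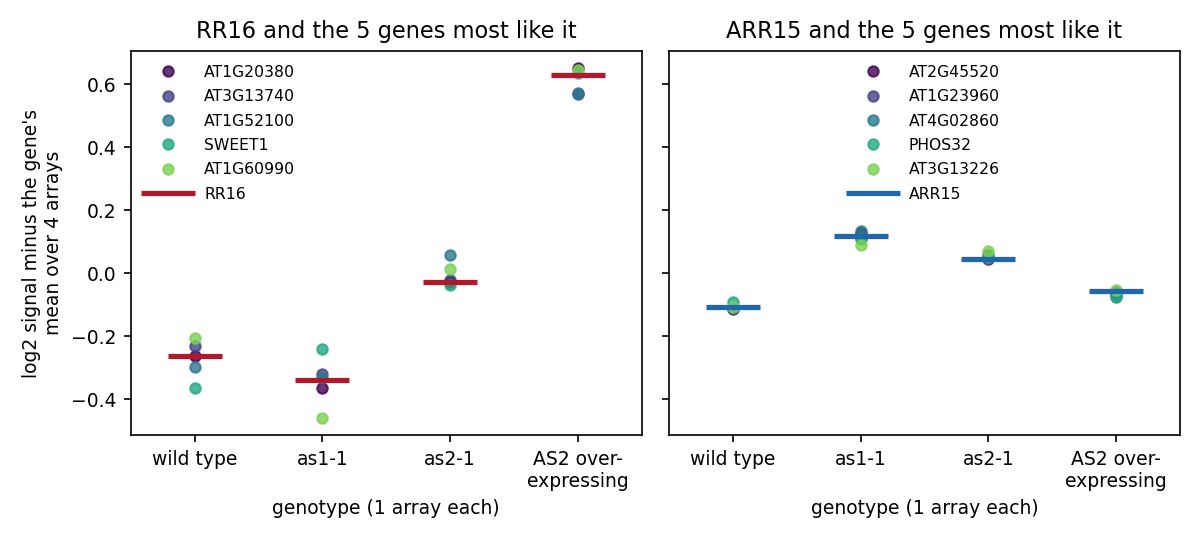
Log2 signal minus the gene's own mean over the 4 arrays, for RR16 (left, wide bar) and ARR15 (right, wide bar) and the 5 genes most like each (circles), by genotype with 1 array each. The RR16 group is highest on the AS2 overexpressing array, and the ARR15 group stays within a log2 range near 0.23.

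The genes beside each locus were taken from the gene order of RefSeq assembly TAIR10.1. Of the 5 protein-coding genes on each side of RR16, 6 in all were named, and their log2 differences between the AS2 overexpressing line and wild type ran from -0.20 to 0.68 with a median of 0.00. The AS2 overexpressing array held the highest value for 3 of the 6, AT2G40620, AT2G40640 and AT2G40660. It did so for 27.6% of the 6821 genes above the floor on every array. For AT2G40620 the lead over wild type was small (170.2 against 165.9). The adjacent AT2G40660 stood at 0.50, with signals of 567.1, 625.1, 716.8 and 801.5 in wild type, as1-1, as2-1 and AS2 overexpressing, so as2-1 was its next highest array, as for RR16. AT2G40640 stood at 0.68, a gene that was also above wild type in as1-1 and as2-1 (101.6 and 84.4 against 65.9). Near ARR15, 5 of 6 named genes were measured and ran from -0.65 to 0.15. None of these 11 neighbours met the 2-fold call in any pair, where 0.729% to 3.28% of all genes met it per pair. For OTP43, beside ARR15, as1-1 (37.6) and as2-1 (17.8) lay under the floor, with 54.5 in wild type and 60.7 with AS2 overexpressed. Its differences from those mutants were lower bounds, so the call could not be judged there.

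**Figure D5:**
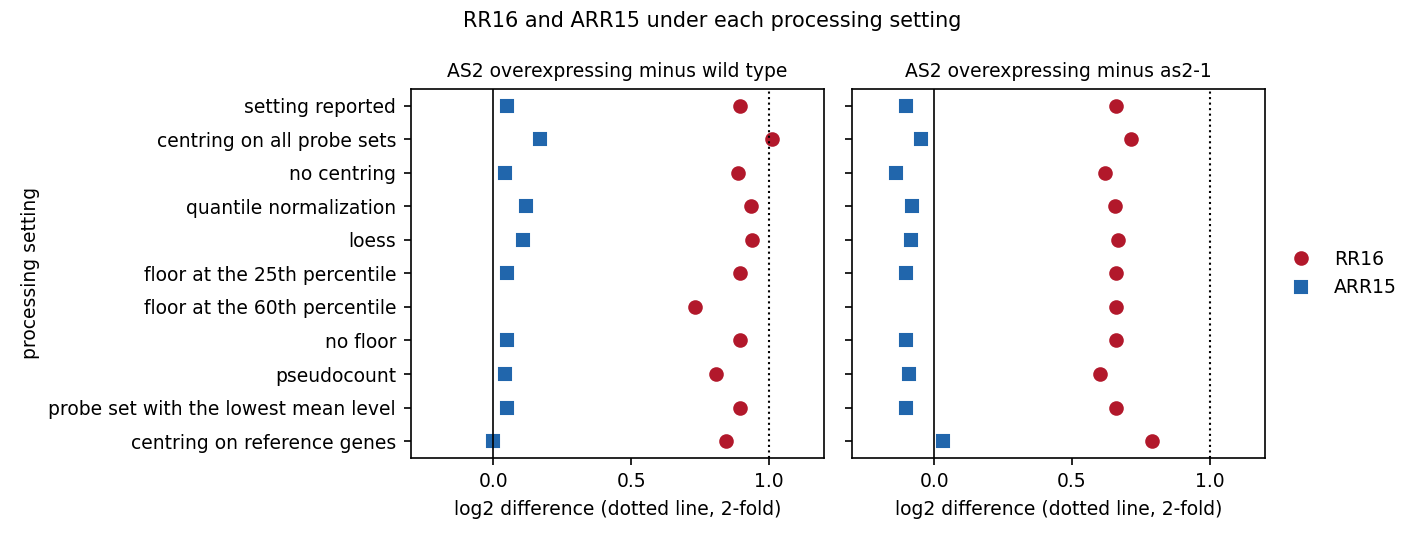
Log2 difference of RR16 (circles) and ARR15 (squares) between the AS2 overexpressing array and wild type (left) or as2-1 (right) under each processing setting, with a dotted line at 2-fold. RR16 stays between 0.73 and 1.01 on the left and between 0.60 and 0.79 on the right. The 0.73 is a lower bound, from the floor at the 60th percentile, under which RR16 lay in wild type. ARR15 stays near 0 and has no value under the highest floor, where it was not measured.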

How the data were processed

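Expression was measured on 4 arrays, 1 per genotype, each placed by its genotype label. Per the labels' protocols, RNA came from RNeasy kits and was turned into biotinylated cRNA by the maker's standard protocol. The deposited values were taken as linear intensity per probe set, which was inferred from the values. The authors' software, scaling and detection calls are not given in the sources used here. Mean deposited signals without the top and bottom 2% of probe sets were 198.4 to 198.5 on every array, and medians 75.7 to 82.5. By that mean the arrays were already near a common level before the centring below.

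Signals were put on the log2 scale (0 set to 0.1), arrays were centred on the median of their brighter probe sets (mean level not under the median one), and values under the 40th percentile were raised to that floor, 42.9. A difference with 1 array at the floor is a lower bound, and with both there is none. Of 22746 probe sets, 13513 had 1 gene, 503 several and 8730 none in the platform annotation, which can be old. RefSeq (TAIR10.1) symbols were matched for 13436. For 147 genes with several probe sets the brightest was used. Named were both type-A genes, all named cytokinin list genes, markers and the 5 genes most like each. Members and lists were chosen with earlier results of these data known. No test was run, and the number of arrays limits precision. Protein and promoter sequences were not analysed here. Python 3.11.15, pandas 2.3.3, numpy 2.4.6 and statsmodels 0.14.6 were used.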

Additional observations from a re-analysis of the deposited data

How the results depend on the processing

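Other settings were centring on all probe sets, no centring, quantile normalization, loess, floors at the 25th and 60th percentiles, no floor, a pseudocount of 16, the dimmest probe set of a gene and, chosen after seeing the data, centring on 5 reference genes. RR16 was higher in the AS2 overexpressing line than in wild type in 10 of 10 (0.73 to 1.01 on the log2 scale). It was also higher there than in as1-1 (0.73 to 1.04) and than in as2-1 (0.60 to 0.79). RR16 passed 2-fold with centring on all probe sets alone, at 1.01 against wild type and 1.04 against as1-1. With 1 probe set, above the floor, RR16 could not change with the 25th percentile floor, no floor or the dimmest probe set. Those settings returned the values already reported and add no support. Centring on reference genes turned the sign of ARR15, always under 2-fold, in as2-1 against wild type (-0.031) and in the AS2 overexpressing line against wild type (-0.00072) and as2-1 (0.0305). With the floor at the 60th percentile, a signal of 128.5, ARR15 lay under it on all arrays and gave no value, as did RR16 in as1-1 against wild type. The 0.73 of RR16 against wild type and against as1-1 came from this floor and is a lower bound. Without this setting the lowest values were 0.81 and 0.88, with the pseudocount.

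The count of genes at least 2-fold apart moved with the floor, by how many dim genes enter. For as1-1, as2-1 and AS2 overexpressing against wild type, as1-1 against as2-1, and AS2 overexpressing against as1-1 and as2-1, it was 660, 729, 542, 164, 519 and 510 at the 25th percentile, 97, 116, 43, 20, 102 and 100 at the 60th, 3177, 3259, 2724, 2508, 2956 and 2925 with no floor, and 490, 487, 399, 98, 384 and 368 with the pseudocount. Centring on all probe sets turned the AS2 overexpressing split against wild type from 55 higher and 93 lower to 90 and 62, and loess gave 61 and 77. Centring on reference genes shifted the median gene of as2-1 against wild type by -0.18 and turned its split from 116 higher and 138 lower to 51 and 271, that of as1-1 against as2-1 from 32 and 23 to 60 and 15, and that of AS2 overexpressing against as2-1 from 79 and 133 to 132 and 91. Of the 5 genes most like RR16, 3 were kept at the 25th percentile, 0 at the 60th, 2 with no floor and 2 with the pseudocount. Of those most like ARR15, 0 were kept with quantile normalization, 0 with loess and 3 with the pseudocount. The median of the transport and conjugation genes kept its sign in every pair and setting run, except in as2-1 against wild type with centring on reference genes, where it was -0.087. It covered all 3 genes except with the floor at the 60th percentile. There AZG1 lay under the floor on all arrays, and UGT76C1 on all but the AS2 overexpressing array (132.0). That setting thus rested on UGT76C2, with lower bounds for UGT76C1 in the pairs with the AS2 overexpressing array. No paired analysis was possible because each genotype has 1 array.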
